A study of Danio rerio with 6 samples.

Results

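miR-143 and miR-145 are a pair of microRNAs (miRNAs) known as markers of smooth muscle. They were taken by name, as the probes dre-miR-143 and dre-miR-145, and are 2 of the 218 zebrafish miRNA probes on the array. Small RNA was measured in pooled hearts of adult Ekkwill (EK) zebrafish, a wild-type strain. The series has 3 samples of uninjured hearts (0 hours) and 3 of hearts that were regenerating, collected 6 hours after a piece was cut away, and the series design calls the replicates biological. In each group replicates were stained with Cy3 in 2 cases and with Cy5 in 1. The labels name no sham-operated group, so surgery and loss of tissue cannot be told apart. A pool of whole hearts mixes all cell types, and fewer smooth muscle cells and less miRNA per cell cannot be told apart.

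A miRNA guides a silencing complex to messenger RNAs that pair with its seed, the bases near its 5′ end. In mammals miR-143 and miR-145 are cut from neighbouring hairpins of a shared transcript, which is switched on in smooth muscle by serum response factor and its partner myocardin. In the mouse the pair holds vascular smooth muscle in its contractile state and represses factors of the growing state such as KLF4, KLF5 and ELK1. In zebrafish embryos miR-143 has been tied to the shaping of the heart chambers and miR-145 to the ripening of gut smooth muscle. Comparing the hearts asks how miRNA levels differ early after amputation, and for this pair whether both members moved together.

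The target sequences of the 2 probes are shown with the seed (bases 2 to 8) in capitals, because the seed decides which messages each miRNA can bind and because closeness to other targets bears on what a probe can read.
miR-143: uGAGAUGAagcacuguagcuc
miR-145: gUCCAGUUuucccaggaauccc
The seeds differ, and 0 other probes on the array carry either of them. The target of miR-143 is 21 nucleotides (nt) long with 47.6% G and C (GC), and that of miR-145 is 22 nt long with 54.5% GC. The 2 targets lie at an edit distance of 13 from each other. The closest other target to miR-143 was miR-184, which is 8 edits away, and the closest to miR-145 were miR-223 and miR-26a, which are 9 edits away. In the RefSeq annotation of GRCz12tu the gene mir145 overlaps the long noncoding RNA gene LOC137487609 and lies between fbxo38 and csnk1a1. The strands were not compared. No gene with the symbol mir143 was found there, so whether the pair shares a transcript in zebrafish was not read from it.

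Both miRNAs were read far above background on all 6 arrays. Each probe has 12 spots per array, and the mean spot intensity was 11.0 to 266 times the local background. The coefficient of variation over the 12 spots ran from 2.39% to 8.14%. The brightest spot of either probe read 12977, where the brightest spot of any kind read 58536. A probe counted as above background when its background-subtracted mean exceeded 3 standard deviations (SDs) of the empty spots, and the values of the pair were 38.9 to 1074 times that limit. The number of samples, not the spots, limits the precision.

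Before normalization the mean spot intensity of miR-143 in uninjured replicates 1 to 3 was 10801, 11592 and 11850. In regenerating replicates 1 to 3 it was 9157, 6957 and 4836, so every regenerating array was dimmer than every uninjured one. For miR-145 it was 7716, 7345 and 7511 in the uninjured replicates. Regenerating replicate 1 lay above these, at 8979, and replicates 2 and 3 lay below, at 6086 and 3706. The summed background-subtracted intensity of the heart and skeletal muscle probes miR-1, miR-133a and miR-499 was also lower in the regenerating samples. It was 94563 to 97580 in the uninjured samples and 54633 to 90251 in the regenerating ones. The added calibration spots did not follow this order. Their geometric mean was 813, 698 and 1026 in uninjured replicates 1 to 3. In regenerating replicates 1 to 3 it was 891, 1614 and 1699.

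**Figure D1:**
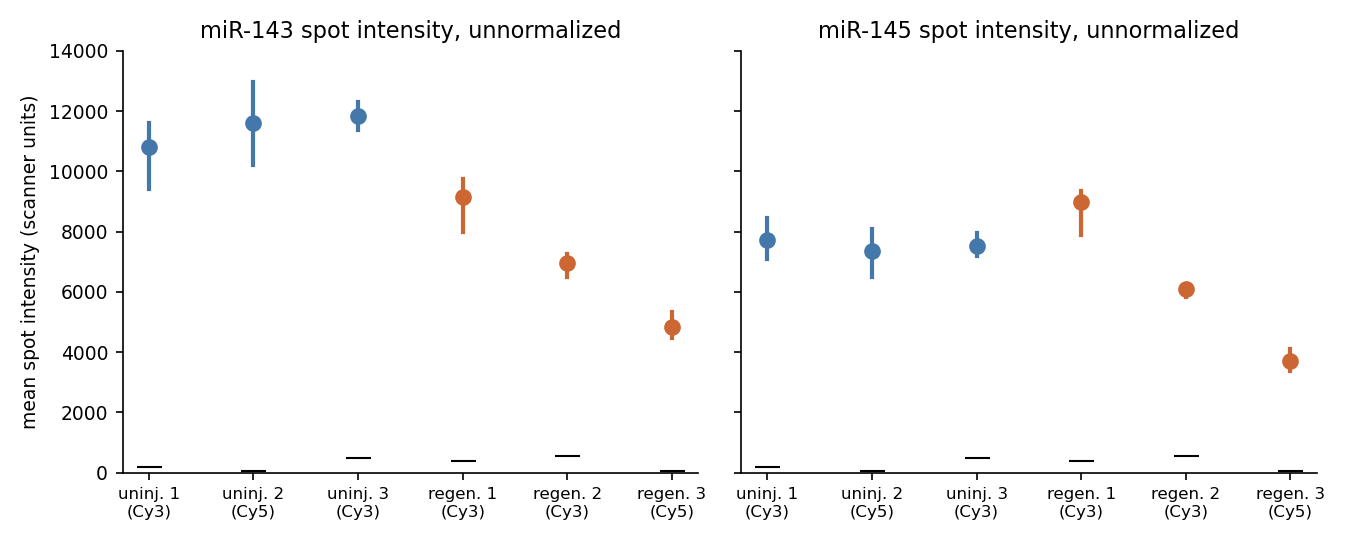
Mean spot intensity of miR-143 and miR-145 in each sample before normalization, on a linear axis; points are means of 12 spots, bars run from the lowest to the highest spot, and black dashes mark the local background. For miR-143 all 3 regenerating samples lie below the uninjured ones, and for miR-145 regenerating replicate 1, at 8979, lies above them.

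After quantile normalization, which gives all arrays 1 distribution, miR-143 stood at a log2 intensity of 13.35, 13.01 and 13.29 in uninjured replicates 1, 2 and 3. It stood at 12.87, 13.19 and 13.01 in the regenerating replicates. The groups overlapped, and the value in uninjured replicate 2 equals that in regenerating replicate 3 because the probe holds the same rank on both arrays. Group means were 13.22 ± 0.19 in the uninjured and 13.02 ± 0.16 in the regenerating samples (SD, n = 3 each). The log2 change, regenerating minus uninjured, was -0.19 (SE 0.15, 95% interval -0.57 to 0.18), which did not pass the threshold of 0.05 (limma adjusted p = 0.538 over the 138 probes tested). Without regenerating replicate 1 it was -0.081. In 5 of 26 alternative settings the miR-143 groups did not overlap and the regenerating samples read lower. They were cyclic loess, calibration scaling, median scaling over all miRNA probes, Cy3 samples only and the fit without uninjured replicate 2. With calibration scaling and with that median scaling, the median log2 change of all tested probes was itself -0.91 and -0.79. The Cy3 setting and the fit without uninjured replicate 2 had fewer samples, so that non-overlap is likelier by chance. How many of all probes did not overlap in these settings was not counted.

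miR-145 stood at 12.55, 12.29 and 12.33 in uninjured replicates 1, 2 and 3, and at 12.77, 13.05 and 12.67 in the regenerating replicates on the same normalized log2 scale. Every regenerating sample read higher than every uninjured one. This separation belonged to quantile normalization: the groups overlapped with cyclic loess and with 75th percentile, median or calibration scaling. They also overlapped with the authors' processed values and after GC correction. Group means were 12.39 ± 0.14 and 12.83 ± 0.20 (SD, n = 3 each), a 1.36-fold difference. The log2 change was 0.44 (SE 0.15, 95% interval 0.079 to 0.80). Its unadjusted p was 0.0249, and it did not pass after adjustment (limma adjusted p = 0.181). The adjusted p was 0.0562 without regenerating replicate 1 and 0.915 at the highest over the alternatives.

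**Figure D2:**
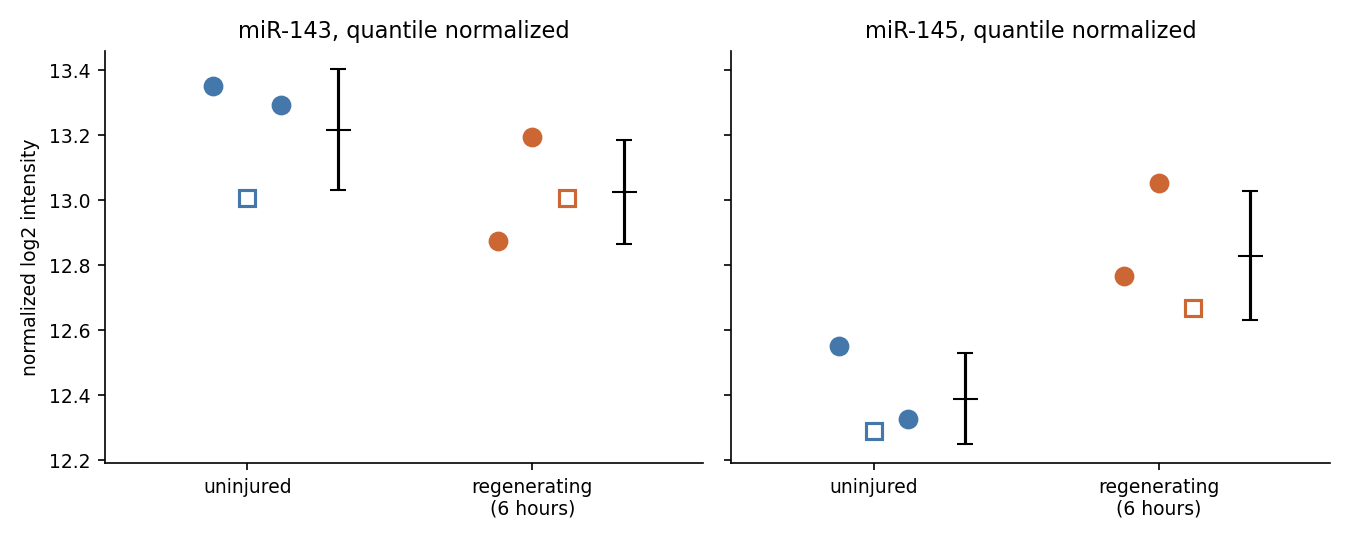
Quantile-normalized log2 intensity of miR-143 and miR-145 in uninjured and regenerating samples; filled circles are Cy3 samples, open squares Cy5 samples, and black bars the mean ± SD (n = 3 each). The miR-143 groups overlap, and the miR-145 regenerating samples (12.67 to 13.05) lie above the uninjured ones (12.29 to 12.55).

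These results stand against a common background of such calls. Of the 138 tested probes 3.62% passed the threshold (1.45% higher and 2.17% lower), and neither member was among them. An unadjusted p below 0.05 was found for 20.3% of probes, with 8.7% in the higher direction. Groups that do not overlap, as for miR-145, were found for 23.9% of probes, and 9.42% had the regenerating samples higher. By size of change miR-145 ranked 36 of 138 and miR-143 ranked 76. The median change over all tested probes was -0.052, and their quartiles were -0.26 and 0.15, with miR-143 between these and miR-145 above them.

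**Figure D3:**
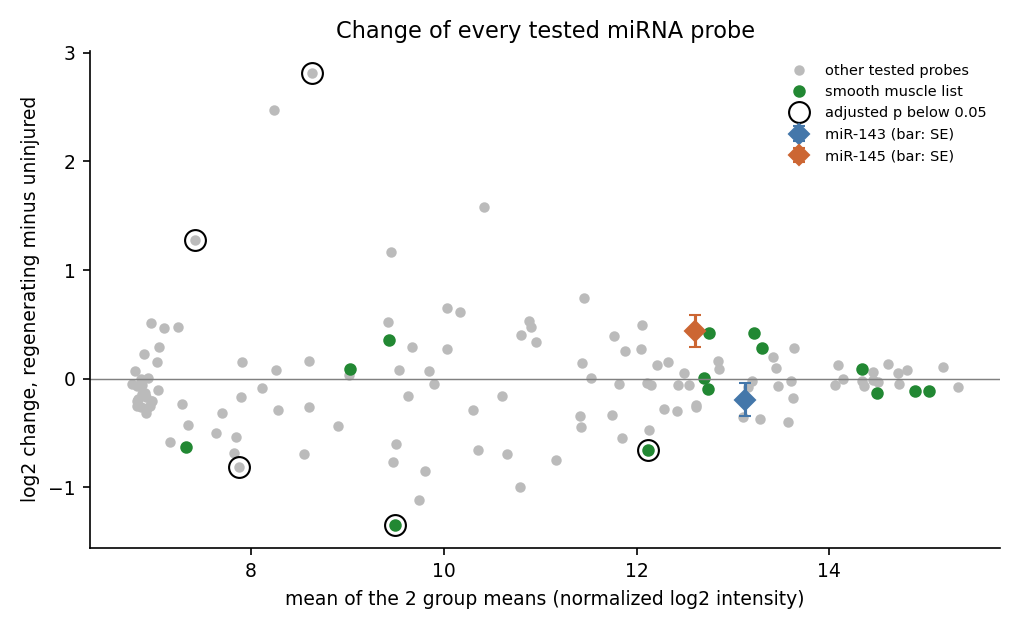
Log2 change (regenerating minus uninjured) of the 138 tested probes against the mean of both group means of normalized log2 intensity; green points are the other probes of a list of smooth muscle and fibroblast miRNAs, diamonds the 2 members with their SE, and black rings the 5 probes past the threshold. miR-145 at 0.44 and miR-143 at -0.19 both lie outside the rings.

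Dye was balanced between the groups, and the values within each dye were as follows. Over the Cy3 samples (2 against 2) miR-143 differed by -0.29 and miR-145 by 0.47 on the normalized log2 scale. Over the Cy5 samples (1 against 1) miR-143 differed by 0 and miR-145 by 0.38. On this scale the miR-145 difference therefore had the same sign in both dyes. Before normalization the Cy5 reading of miR-145 was lower in the regenerating sample, at 3706 against 7345. The regenerating Cy3 readings lay on both sides of the uninjured ones.

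The relation between both members was then followed within each array. A ratio of the 2 probes does not give the relative amount of the 2 miRNAs, since probes differ in how well they bind, but a factor that scales a whole array cancels in it. On the normalized scale the log2 of miR-145 over miR-143 in uninjured replicates 1 to 3 was -0.80, -0.72 and -0.97. It was -0.11, -0.14 and -0.34 in the regenerating replicates, and the groups did not overlap. The means were -0.83 ± 0.13 and -0.20 ± 0.12 (SD, n = 3 each), so that miR-145 relative to miR-143 read 1.55-fold higher after amputation, a difference of 0.63 on the log2 scale. The exact two-sided permutation test over the 20 possible arrangements gave p = 0.1, the smallest that 3 against 3 allows, so that this test cannot pass 0.05.

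The same order was seen without normalization. On the array each miR-143 spot has a miR-145 spot 2 rows away in the same column, which gives 12 local ratios per sample. In uninjured replicates 1 to 3 their mean log2 was -0.49, -0.66 and -0.70. In the regenerating replicates it was -0.029, -0.21 and -0.39. Over all 6 samples the SDs between positions were 0.036 to 0.062. Regenerating replicate 3, the Cy5 sample, lay nearest to the uninjured group. Of the 36 local ratios in regenerating samples 31 lay above the highest of the 36 in uninjured samples. These positions are repeat readings of the same RNA and were not used as replicates. The group means were -0.62 ± 0.11 and -0.21 ± 0.18 (SD, n = 3 each), a 1.33-fold difference, or 0.41 on the log2 scale (exact two-sided permutation p = 0.1). Within dye this unnormalized difference was 0.48 over the Cy3 samples and 0.27 over the Cy5 samples.

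**Figure D4:**
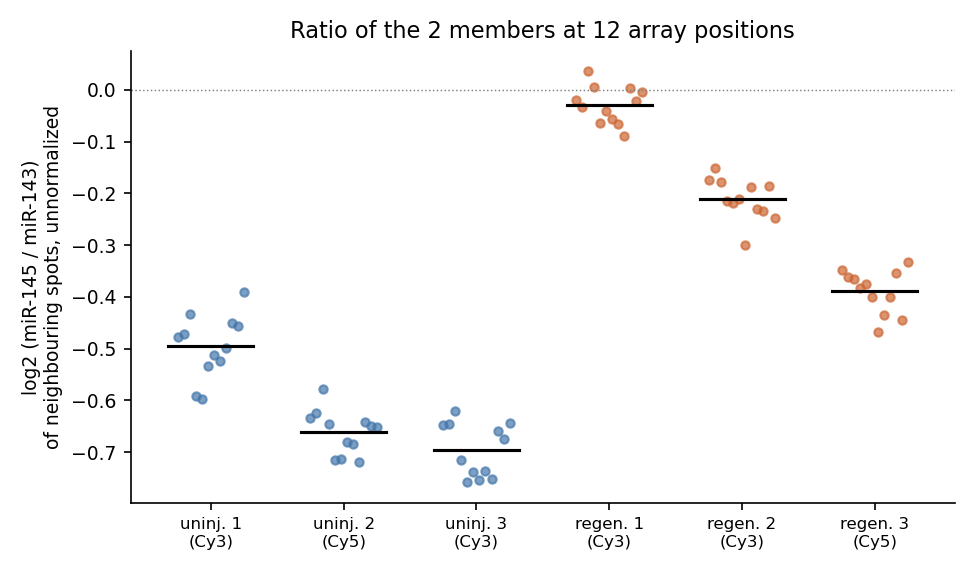
Log2 ratio of background-subtracted miR-145 to miR-143 intensity at 12 pairs of neighbouring spots in each sample, without normalization; points are pairs of spots and black lines their mean. The means lie at -0.70 to -0.49 in the uninjured samples and at -0.39 to -0.029 in the regenerating ones.

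The authors' own processed intensities, which are linear and whose scaling no source used here gives, showed the same order of ratios. For miR-143 they read 8324, 7550 and 8036 in the uninjured replicates and 6249, 7727 and 6436 in the regenerating ones. For miR-145 they read 5679, 4498 and 4785 in the uninjured replicates and 6033, 7059 and 5064 in the regenerating ones. Each probe's groups overlapped, whereas the ratio of miR-145 to miR-143 did not: it was 0.682, 0.596 and 0.595 in the uninjured and 0.965, 0.913 and 0.787 in the regenerating samples. The difference of log2 ratios was 0.51 on this table (exact two-sided permutation p = 0.1).

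A shift between 2 probes of this kind was common among the tested miRNAs. Over all 9453 pairs of tested probes on the quantile-normalized scale, 29% had log2 differences that did not overlap between the groups. On that scale 18.4% did so with a difference at least as large as that of miR-145 and miR-143 (0.63). Such shares were not counted without normalization or for the authors' values. The pairs share probes and are not independent, so these shares are a description of the data. On the quantile-normalized scale nothing is therefore particular to this pair in the size of its shift.

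Whether the members moved in opposite directions or together depended on how the arrays were scaled. The signs were opposite in 17 of the 19 settings compared, the standard one included, and both were below 0 in 2. Some of these signs rest on values near 0. miR-145 stood at 0.057 with 75th percentile scaling, and miR-143 at -0.018 with 75th percentile scaling over all 218 probes. Most of the 17 kept quantile normalization and are not separate evidence on scaling. They were the standard setting, the other background corrections, GC correction, Cy3 samples only and the fits without 1 sample. With scaling to added calibration spots miR-143 stood at -1.39 and miR-145 at -0.99, where the median of all probes was -0.91. With median scaling over all 218 miRNA probes they stood at -1.27 and -0.86 with a median of -0.79, and there miR-143 passed (limma adjusted p = 0.0451). In that setting 29 of the 138 tested probes passed in limma, 26 of them lower and 3 higher, so the pass is shared with many probes. Less the median of all tested probes, miR-143 stood at -0.48 and miR-145 at -0.073 under each scaling that moves an array by 1 factor, which is equal by construction. With quantile normalization the same differences were -0.14 and 0.49. With cyclic loess, which like quantile normalization adjusts by intensity, they were -0.21 and 0.24, and with the authors' processed values -0.18 and 0.32. Among the ways of scaling the arrays, miR-145 therefore stood above the typical probe only with those 3, the sign turning under the 1-factor scalings. The other settings that kept quantile normalization also left it above, by 0.15 after GC correction. The sign of the difference between the members was the same in all 22 alternatives in which it was recomputed, with values of 0.40 to 0.72. Among these, the 1-factor scalings share a value and the changed probe filters repeat the main value, both by construction.

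**Figure D5:**
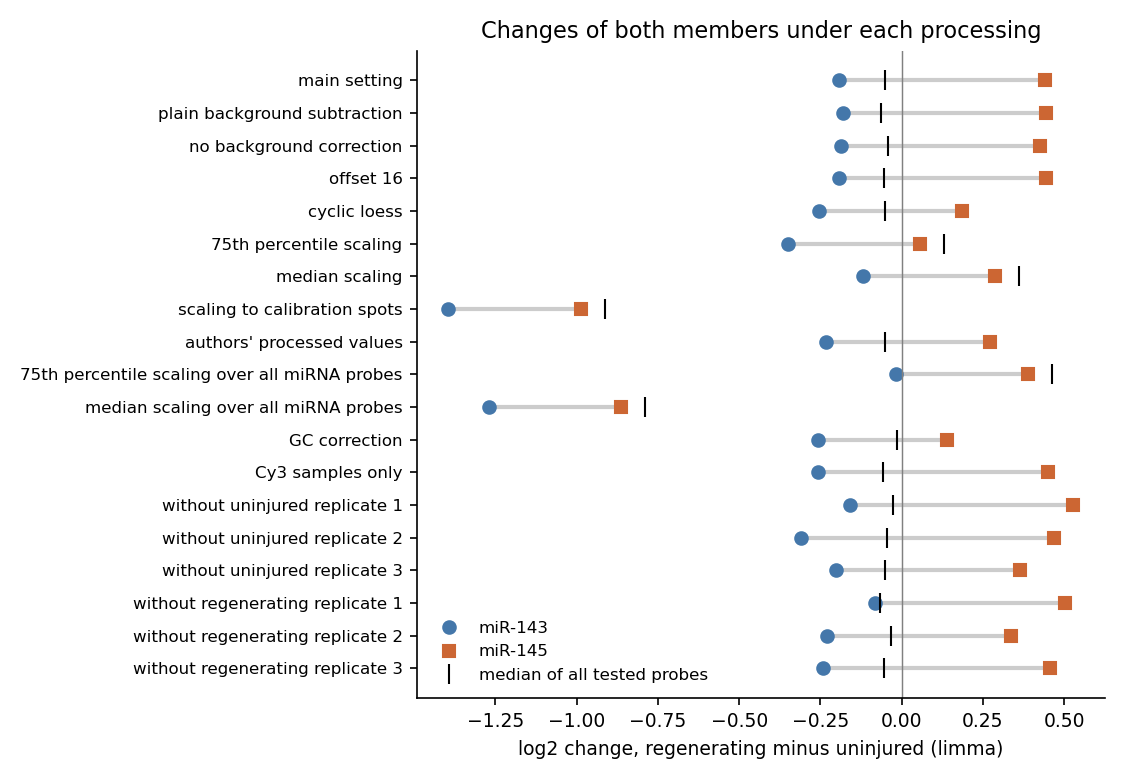
Log2 changes (regenerating minus uninjured, limma) of miR-143 and miR-145 under each of 19 processing settings; the grey line joins both members and the black tick is the median of the 138 tested probes. miR-145 lies to the right of miR-143 in each setting shown, and both lie below 0 with scaling to calibration spots and with median scaling over all miRNA probes.

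Probes with GC-rich targets tended to higher changes on this array. The 46 probes with at least 50% GC, miR-145 among them, had a median of 0.11, and the 30 probes with 45% to 50% GC, miR-143 among them, had a median of 0.0038 on the log2 scale. After removal of a linear GC trend from each array, miR-145 stood at 0.14 (limma adjusted p = 0.542) with overlapping groups, miR-143 stood at -0.26 (limma adjusted p = 0.399), and the difference between them was 0.40.

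Other miRNAs that regulate smooth muscle or mark fibroblasts and the epicardium were looked at beside the pair. The list held 18 names, of which 17 had a probe and 16 were bright enough to test, miR-143 and miR-145 among them. In limma 2 of the 16 fell, 0 rose and 14 did not pass, against 3.62% of all probes. An unadjusted p below 0.05 was found for 6 of the 16, against 28 of all 138 probes (20.3%). Of these 6, miR-145, miR-214 and miR-222 were above 0, and miR-29a, miR-29b and miR-31 were below. The list was chosen with earlier results of these data known, so its shares are a description and not a test. The median of the list was -0.042 beside -0.052 for all probes. The list had 8 members above 0 and 8 below, where all 138 probes had 57 above and 81 below. The 2 that passed in limma were miR-29a, at -0.66 (adjusted p = 0.0494), and miR-29b, at -1.35 (adjusted p = 0.0127). Both are known as repressors of collagen and other matrix genes. With 75th percentile or median scaling 0 of the 16 passed in limma, with 2 at an unadjusted p below 0.05, where 36 and 39 of the 138 probes had one. With 75th percentile scaling miR-29a stood at -1.02 and miR-29b at -1.10 (limma adjusted p = 0.0659 and 0.0742).

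Members of the list that are known to favour growth of vascular smooth muscle in mammals did not pass. The neighbours miR-221 and miR-222, repressors of the cell cycle inhibitor p27, had log2 changes of 0.28 (SE 0.13) and 0.42 (SE 0.13), with limma adjusted p of 0.324 and 0.131. For both, as for miR-145, the groups did not overlap and the regenerating samples read higher. miR-21, induced in injured vessels, stood at -0.13 (SE 0.19) and miR-26a at -0.11 (SE 0.13), with overlapping groups. miR-31, also tied to growth of vascular smooth muscle and named here after its values were seen, went the other way at -0.63 (SE 0.17, limma adjusted p = 0.130), with groups that did not overlap. It was a dim probe, and with 75th percentile scaling it stood at 0.37. Of the miRNAs of fibroblasts and the epicardium, the log2 values were 0.42 (SE 0.15) for miR-214 and 0.35 (SE 0.32) for miR-199, with limma adjusted p of 0.220 and 0.600. The other arm, miR-199*, likewise named after its values were seen, stood at -0.091 (SE 0.16, limma adjusted p = 0.800). With 75th percentile scaling, less the median of all probes, miR-221 stood at 0.11, miR-222 at 0.19, miR-199 at 0.11, miR-199* at -0.54 and miR-214 at -0.00091. After removal of the GC trend miR-214 turned to -0.13. There miR-221 stood at 0.21, miR-222 at 0.13, miR-199 at 0.13 and miR-199* at 0.070.

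The pattern over the 6 samples was set against that of every other tested probe by the root mean square (RMS) difference of profiles, each centred on its own mean. The profile of miR-143 was closest to miR-140 (0.11), miR-20b (0.11) and miR-24 (0.12), in log2 units. miR-140 was a dim probe, with group means of 6.96 and 6.83, and a dim probe is held near a constant by the offset. The profile of miR-145 was closest to those of miR-203b (0.11, also dim, with group means of 6.87 and 7.33), the muscle miRNA miR-133a (0.12) and miR-221 (0.13). The members were not among each other's closest: at an RMS difference of 0.33, miR-145 ranked 82 of 137 by likeness to miR-143, and miR-143 ranked 62 of 137 by likeness to miR-145.

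The makeup of the samples was read from miRNAs of other cell types. All 3 probes taken for heart and skeletal muscle were above background on every array, and this set does not separate those tissues. None of them passed: miR-1 stood at -0.047, miR-133a at 0.28 and miR-499 at -0.074. Quantile normalization holds the brightest probes near fixed values, and miR-499 had an SD of 0 over the uninjured samples. Before normalization the summed intensity of these probes was lower in the regenerating samples. Their changes near 0 therefore do not show that the amount of muscle miRNA stayed level. miR-206, a miRNA of skeletal muscle named here after its values were seen, differed by 2.47 (SE 0.63, limma adjusted p = 0.115) and read higher in the regenerating samples, with no overlap. Its SD was 0.22 over the uninjured and 1.39 over the regenerating samples (n = 3 each). Of the leukocyte probes 2 of 4 were bright enough to test, with miR-223 at 1.16 (SE 0.34, limma adjusted p = 0.131) and miR-150 at -0.038, and both arms of miR-142a were above background only in regenerating replicate 1. The endothelial probes miR-126 and miR-126* stood at 0.10 and -0.27. The red blood cell probe miR-451 stood at 0.067, and miR-144 was too dim. Of the epithelial probes miR-200b read lower, at -0.81 (limma adjusted p = 0.0352), miR-200a stood at -0.42 and miR-203a was too dim. The group means of miR-200b were low, at 8.28 and 7.47 on the normalized log2 scale. With 75th percentile or median scaling 0 of the 138 probes passed in the lower direction in limma, so its call depended on the scaling. The part of these cell types in the values of the pair was not tested. Regenerating replicate 1 stood apart, with 217 of 218 miRNA probes above background where the other arrays had 110 to 144. Without it the difference between miR-145 and miR-143 was 0.58.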

How the data were processed

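The deposited spot files hold, per the file headers, mean intensity and within-spot SD of 3968 spots per sample as linear values without background subtraction. Per the labels' protocols small RNA was tailed, tagged and stained with Cy3 or Cy5. A series table holds the authors' processed intensity. The sources used here name no scanner, image software or scaling. Empty spots (1060 per sample) had medians of 43.0 to 560.

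The 16 empty spots nearest to each spot gave its local background (their median), and normexp (offset 50, limma 3.58.1, R 4.3.3) corrected for it. Log2 values were averaged over 12 spots and quantile normalized over 218 miRNA probes. The 138 probes above background in at least 3 of 6 samples were fitted in limma (lmFit, eBayes) with group and dye, and p-values were adjusted by Benjamini-Hochberg over all 138. The script was tested on simulated data. The single within-array difference was tested by exact permutation. Percentile and median scaling used the 105 probes above background on every array; calibration scaling used 8 perfectly matched calibration probes.

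The members, lists and tests were chosen with earlier results of these data known. The rule for named probes took both members, listed probes past the threshold, a fixed set (miR-199, miR-214, miR-21, miR-221, miR-222 and miR-26a) and the 3 probes with the most similar profile for each member. Nothing in the labels says that same-numbered samples were processed together. The correlation of deviations between same-numbered samples was 0.14, -0.45 and 0.37.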

Additional observations from a re-analysis of the deposited data

How the results depend on the processing

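miR-143 was below 0 in all 26 alternatives run, with 1 pass: -1.27 with median scaling over all 218 probes. In that setting 29 of all 138 tested probes passed in limma, 26 of them lower. miR-145 was above 0 in 24 of 26 and passed in none. It was -0.99 with scaling to calibration spots and -0.86 with median scaling over all 218 probes. Alternatives that changed only the probe filter, the model or the threshold kept the main change of each member by construction. Both counts include those alternatives. Leaving out 1 sample gave -0.31 to -0.081 for miR-143, 0.34 to 0.53 for miR-145 and 0.57 to 0.72 for their difference. That difference was 0.44 with cyclic loess, 0.41 under every 1-factor scaling and without normalization, 0.51 with the authors' values and 0.40 with GC correction. The causes of these shifts were not tested. GC correction, the shared array block, scaling over all 218 probes and the unnormalized difference were chosen after seeing the data.

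List calls (2) became 1 with plain subtraction, offset 16, the authors' values and GC correction, and 4 with median scaling over all 218 probes. They became 0 in limma with 75th percentile or median scaling and with 75th percentile scaling over all 218 probes. The same held with Cy3 samples only, the replicate block and an eBayes trend. In that order 2, 2, 4, 3, 3 and 7 list probes had an unadjusted p below 0.05. Of all 138 probes 36, 39, 47, 18, 24 and 27 had one. Calls over all probes (5) became 3 with plain subtraction, with an eBayes trend and with GC correction, 16 with calibration spots, 9 and 29 with 75th percentile and median scaling over all 218 probes, 11 at an unadjusted p below 0.01, 9 with a shared array block, and 0 with Cy3 samples only (18 at an unadjusted p below 0.05). All rose with 75th percentile (5) and median (7) scaling. Leaving out 1 sample gave 0 to 29 calls: the uninjured replicates 1 to 3 left out in turn gave 1, 0 and 4, and the regenerating ones 29, 2 and 0; in the fits with 0, 19 and 18 had an unadjusted p below 0.05. The list had 0 to 4, in the same order 0, 0 and 1, then 4, 0 and 0. In its fits with 0, 3 to 4 list probes had an unadjusted p below 0.05, against 15 to 19 of all 138.

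With the replicate number as a block beside dye, which leaves 1 residual degree of freedom, miR-143 stayed at -0.19 and miR-145 at 0.44 (limma adjusted p = 0.599 and 0.289), and 1 probe was called. The labels do not say whether same-numbered samples share more than a number. Both samples numbered 3 correlated best with each other, and neither sample numbered 2 correlated best with its own number. A block for a possibly shared array paired uninjured replicate 2 with regenerating replicate 1, as their empty spots were the most alike (Spearman rho 0.46; at most 0.24 for other pairs). With it miR-145 had a limma adjusted p of 0.152. The offset holds changes of dim probes near 0, which touches neither member.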
